A study of Homo sapiens with 23 samples.

Results

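The RAB genes encode the largest family of small GTPases of membrane traffic. Members were taken by symbol, as RAB followed by a number and at most 1 letter from A to F, with effectors and pseudogenes left out. This gave 63 genes of the 61217 listed in each of the authors' 6 deposited tables; 1 pseudogene with such a symbol, RAB1C, was set aside. They were described in C-33A, an established cervical squamous carcinoma line without human papillomavirus, and in CaSki, an established line of the same carcinoma type that carries the virus and is of metastatic origin. Cells of both lines were given negative control n#1 or a microRNA, all at 100 nM. The microRNAs, called mimics here, were hsa-miR-124-3p, hsa-miR-23b-3p and hsa-miR-218-5p. PolyA RNA was sequenced from 3 samples of each of the 8 groups, except C-33A with miR-124-3p, which had 2, for 23 samples in all. Each mimic was compared with the negative control of its own line, so the 3 comparisons of a line share their control samples. Sample titles carry numbered RB tags that recur across the groups of a line, but the labels do not state what a tag stands for or whether it marks a separate culture. The p-values therefore rest only on the spread among these samples, which can be technical. That spread was pooled over all listed genes in C-33A and in part in CaSki, so it is not each gene's own. Each line is a single established line, and no further line of either virus status was compared.

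RAB proteins act as switches that sit on a membrane when bound to GTP and are drawn off it when bound to GDP. Exchange factors load GTP, GTPase activating proteins promote its hydrolysis, and effectors read the GTP-bound form to tether, move or fuse vesicles. Different RAB proteins mark different compartments, from the endoplasmic reticulum and Golgi to early, recycling and late endosomes, lysosomes and secretory granules. A microRNA pairs through its seed, bases 2 to 8, mostly with sites in 3' UTRs, and can lower the level of the transcript.

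The mature sequences of 2 of the mimics are shown because their seeds set which RAB transcripts could pair with them. They are from RefSeq (GRCh38.p14), and capitals mark the seed. Mature miR-23b-3p lies at chr9:95085265-95085287 (MIR23B, plus strand). Mature miR-218-5p has copies at chr4:20528299-20528319 (MIR218-1, plus strand) and chr5:168768211-168768231 (MIR218-2, minus strand).
hsa-miR-23b-3p: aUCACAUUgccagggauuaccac
hsa-miR-218-5p: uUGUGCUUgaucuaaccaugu
The seeds differ, so no site is shared between them. The match searched was AATGTGA for miR-23b-3p and AAGCACA for miR-218-5p, on the transcript strand only. Sites of miR-124-3p were not analysed here.

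RAB8B, which held matches to both seeds, is shown with its 3 matches, and RAB8A, its closest paralogue, with its single match. Windows of 25 bases are given on the transcript strand in GRCh38, and capitals mark the match. A single transcript was searched for each gene, the longest that codes for protein in GENCODE 29. The first 2 windows, for miR-23b-3p, lie at chr15:63267379-63267403 and chr15:63267584-63267608. The window for miR-218-5p lies at chr15:63263662-63263686, and that of RAB8A for miR-218-5p at chr19:16132883-16132907, all on the plus strand.
RAB8B site 1 of miR-23b-3p: ttacctttttttaaAATGTGAattt
RAB8B site 2 of miR-23b-3p: tgctccaatggcttAATGTGAaaag
RAB8B site of miR-218-5p: tcctgcttctctgaAAGCACAggtc
RAB8A site of miR-218-5p: gttaaaccaaaggaAAGCACAaatg
Both miR-23b-3p matches of RAB8B are followed by an A (an 8mer site) and start 205 bases apart near the end of a 3' UTR of 4163 bases. Its miR-218-5p match begins at base 57 of the same UTR and is not followed by an A. RAB8A held an 8mer site of miR-218-5p and none of miR-23b-3p.

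A further set is shown because these members differed in their values although each held a match. The windows lie at chr9:121178894-121178918 (RAB14, minus strand), chr10:27541522-27541546 (RAB18, plus strand), and chr4:139474313-139474337 and chr4:139475292-139475316 (RAB33B, plus strand).
RAB14 site of miR-23b-3p: tacactttggaaagAATGTGAaatc
RAB18 site of miR-218-5p: tgttcaatgaatgtAAGCACAcaca
RAB33B site 1 of miR-218-5p: gaaaaactaactgaAAGCACAtgaa
RAB33B site 2 of miR-218-5p: tttatagactttccAAGCACAttta
The RAB14 window is an 8mer site, whereas those of RAB18 and RAB33B are not.

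Members were kept in a deposited table at an average log2 CPM (CPM, counts scaled to library size, averaged over the samples of that comparison) of 0 or more. In C-33A, 49 members were kept with miR-124-3p and 48 with each of the other mimics. In CaSki, 50 were kept with miR-124-3p and 49 with each of the others. Of the 63 members, 41 were kept in every table of both lines, and 7 (RAB33A, RAB37, RAB3C, RAB44, RAB4B, RAB6C and RAB7B) in none. RAB13, RAB17, RAB19, RAB25, RAB27B and RAB38 were kept in CaSki only, and RAB39A, RAB39B, RAB42, RAB6D and RAB9B in C-33A only. The other 4 (RAB20, RAB3A, RAB40A and RAB41) were kept in some tables of a line. RAB17 and RAB25 are known for traffic in polarised epithelium, and RAB38 for the making of lysosome-related organelles. The labelled squamous type was checked against keratin and other markers. In CaSki all 6 squamous and all 5 epithelial markers were kept, with KRT5 between 12.05 and 12.08 in average log2 CPM. In C-33A 0 of 6 squamous and 2 of 5 epithelial markers were kept, with KRT18 highest at 0.65 to 0.88. Of the fibroblast markers, 3 of 5 were kept in C-33A (COL3A1 at 7.11 to 7.22, COL1A2 at 2.93 to 2.97 and PDGFRA at 0.29 to 0.41), while COL1A1 and DCN were below the filter. Of the leukocyte markers 1 of 4 was kept, PTPRC at 2.45 to 2.67, with CD3E, CD14 and CD68 below -3. In CaSki 1 of 5 fibroblast markers (COL1A1) and 0 of 4 leukocyte markers were kept. The part of these differences in the RAB levels was not tested.

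Levels per kb of exon are compared between genes on the scale of average log2 CPM per kb, as the median of a line's deposited tables, which were normalized separately. RAB34, a RAB of the Golgi also known for the primary cilium, led in C-33A at 5.81 and took rank 3 in CaSki at 5.54. RAB10, which brings vesicles to the plasma membrane, took rank 2 in C-33A at 5.55 and rank 4 in CaSki at 5.20. RAB32, which acts with RAB38 in lysosome-related organelles, led in CaSki at 6.31 and stood at 0.17 in C-33A. RAB38 stood at 5.00 in CaSki, rank 5 in that line, and was under the filter in C-33A. RAB1B, a RAB of transport from the endoplasmic reticulum to the Golgi, stood at 4.60 in C-33A and 5.86 in CaSki. The order went the other way for RAB36 (1.68 in C-33A and -1.76 in CaSki), RAB3B (2.05 and -1.28) and RAB6B (2.77 and -0.61). These levels were not tested between lines, and values per sample were not analysed here.

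**Figure D1:**
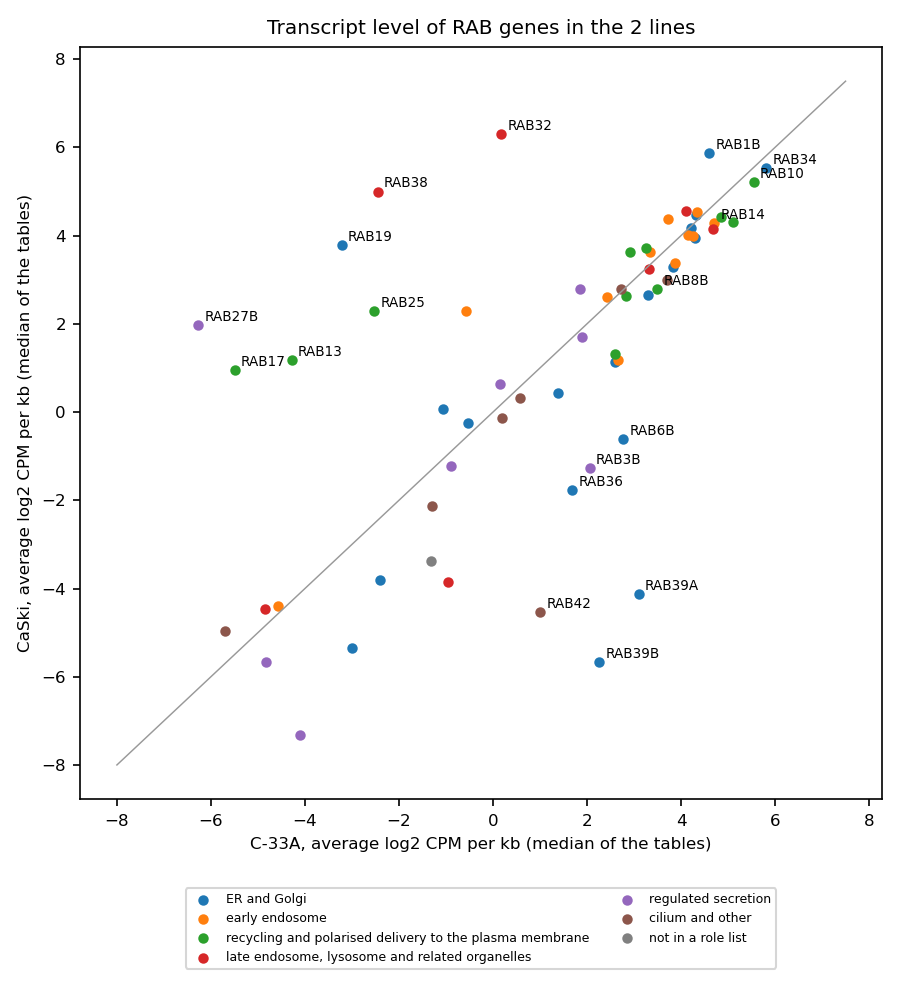
Median average log2 CPM per kb of exon of each RAB gene over the 3 deposited tables of C-33A (x axis) and of CaSki (y axis); each point is a gene, coloured by role, and the line marks equal values. RAB32 stands at 0.17 in C-33A and 6.31 in CaSki, while RAB34 is near the line in both.

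In the authors' deposited tables, 8 values in 5 genes passed an adjusted p (FDR of edgeR, Benjamini-Hochberg over all listed genes) under 0.05, among 293 kept values. RAB34 and RAB8B were called in more than 1 comparison. In C-33A with miR-124-3p, 1 of 49 members fell (RAB34) and 0 rose, beside 0.517% of all kept genes that fell and 0.116% that rose. With miR-23b-3p, 1 of 48 fell (RAB8B) and 0 rose in C-33A, beside 0.125% and 0.0657% of all kept genes. With miR-218-5p, 1 of 48 fell (RAB8B) and 0 rose in C-33A, beside 0.273% and 0.026%. In CaSki, miR-124-3p gave 2 falls (RAB34 and RAB38) and 0 rises among 50 members, beside 0.801% and 0.4% of all kept genes. With miR-23b-3p, 1 of 49 fell (RAB34) and 2 rose (RAB14 and RAB22A) in CaSki, beside 3.84% and 5.25%. In CaSki with miR-218-5p, 0 of 49 members fell and 0 rose, beside 0.0848% and 0.013%. With counts of 0 to 3 in each comparison, these shares are too coarse to set the family apart from other genes.

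Between 49.0% (CaSki, miR-23b-3p) and 79.2% (C-33A, miR-23b-3p) of the kept members had a deposited log2 fold change within 0.25 of 0, beside 49.2% and 76.4% of all kept genes in those deposited tables, so the members' shares lay near those of all genes. In the authors' deposited tables, the members with an unadjusted p under 0.05 numbered 7 with miR-124-3p, 1 with miR-23b-3p and 6 with miR-218-5p in C-33A, and 8, 17 and 5 in CaSki. As shares of the kept members these were 14.3%, 2.08%, 12.5%, 16%, 34.7% and 10.2%. The same shares over all kept genes were 9.57%, 4.23%, 5.05%, 14.7%, 29.7% and 6.85%. The median log2 fold change of the members lay between -0.043 (C-33A, miR-218-5p) and 0.029 (CaSki, miR-124-3p), and that of all kept genes between -0.038 and 0.012. Members were on the whole higher in level than other kept genes, with a median average log2 CPM of 5.1 to 5.3 against 4.1 to 4.2.

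**Figure D2:**
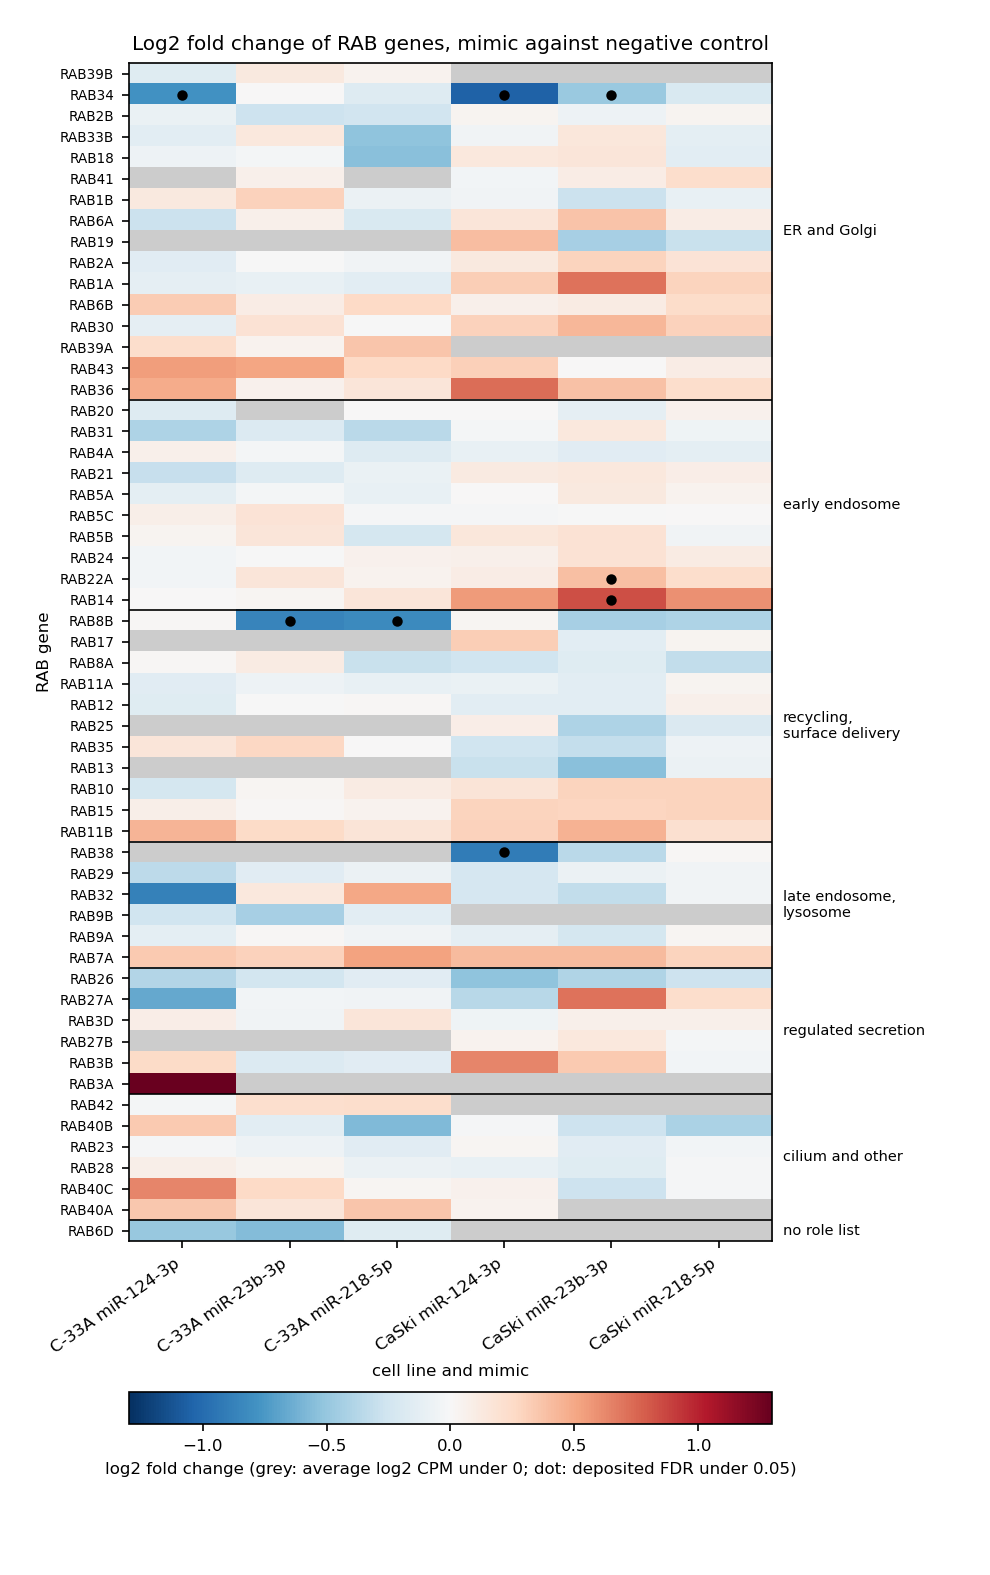
Deposited log2 fold change of each RAB gene kept in at least 1 table (rows, by role) in the 6 comparisons of a mimic with its control (columns); grey marks an average log2 CPM under 0 and a dot an FDR under 0.05. The 8 dots fall on RAB34, RAB8B, RAB38, RAB14 and RAB22A.

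Among the members of the endoplasmic reticulum and Golgi, RAB34 (ENSG00000109113, chr17:28714281-28718429, minus strand) was lower with miR-124-3p in both lines. In the authors' deposited tables its log2 fold change was -0.79 (SE 0.173, edgeR FDR 0.00541) in C-33A and -1.06 (SE 0.209, FDR 0.00073) in CaSki. These are falls of the transcript to 0.579 and 0.481 of its control level. With miR-23b-3p RAB34 fell by 0.48 (SE 0.118, edgeR FDR 0.00459) in the deposited CaSki table and stood at 0.01 (SE 0.166, FDR 1) in that of C-33A. With miR-218-5p the deposited values were -0.17 (SE 0.161, FDR 1) and -0.20 (SE 0.149, FDR 1). The fall of RAB34 with miR-124-3p was also seen when set against the mean of the line's other 2 mimics, a contrast in which the controls cancel, at -0.71 in C-33A and -0.72 in CaSki. The value with miR-23b-3p in CaSki was 0.14 on that contrast. Its mean includes the RAB34 value of -1.06 with miR-124-3p, so the contrast cannot decide on the miR-23b-3p fall. That fall missed the threshold once a trend on transcript length and GC content was removed (-0.32, adjusted p 0.194). RAB34 held no 7-base match to either seed shown above in its short 3' UTR of 362 bases.

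Of the 18 members in this role, 14 or 15 were kept in each table, and no member other than RAB34 passed in any comparison. With shares of at most 5.25% of all kept genes in 1 direction, so few members could show no other calls without differing from other genes. RAB18, a RAB of lipid droplets and the endoplasmic reticulum, had a log2 fold change of -0.54 (SE 0.164, p 0.00102, edgeR FDR 0.482) with miR-218-5p in the deposited C-33A table. RAB33B, a Golgi RAB that binds the autophagy protein ATG16L1, had -0.52 (SE 0.180, p 0.00362, edgeR FDR 1) there. In the deposited CaSki table for miR-218-5p both were nearer to 0, at -0.14 (SE 0.120) for RAB18 and -0.12 (SE 0.188) for RAB33B. RAB33B shares 694 exon bases with an antisense gene, and it is not known here whether the counting used strand. RAB1A, which like RAB1B serves transport to the Golgi, had 0.71 (SE 0.392, edgeR FDR 0.609) with miR-23b-3p in the deposited CaSki table, an estimate with a wide error; 22.9% of its exon bases are shared with CEP68 on the opposite strand. RAB6A, which returns cargo from endosomes and Golgi, had 0.37 (SE 0.117, edgeR FDR 0.0555) there, just outside the threshold. RAB36, a Golgi RAB close to RAB34, had 0.72 (SE 0.314, edgeR FDR 0.817) with miR-124-3p in the deposited CaSki table and 0.48 (SE 0.227, FDR 1) in that of C-33A. In CaSki RAB36 was near the filter, at an average log2 CPM of 0.25 to 0.55 over the tables. RAB43, a Golgi RAB, had 0.55 (SE 0.367) with miR-124-3p and 0.51 (SE 0.344) with miR-23b-3p in the deposited C-33A tables, both at an edgeR FDR of 1; most of its exon bases, 79.3%, are shared with the readthrough gene ISY1-RAB43.

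Of the 11 early endosome members, 10 were kept in CaSki with miR-23b-3p. RAB14 and RAB22A rose there, beside 5.25% of all kept genes. With so few members, 2 rises are too few to set the role apart from other genes. RAB14 (ENSG00000119396, chr9:121178137-121223014, minus strand) acts between endosomes, the Golgi and the cell surface. In the authors' deposited CaSki tables its log2 fold change was 0.84 (SE 0.142, edgeR FDR 7.45e-06) with miR-23b-3p, 1.79 times its control level. The CaSki values with the other mimics, against the same control samples, were 0.56 (SE 0.252, edgeR FDR 0.891) with miR-124-3p and 0.59 (SE 0.280, FDR 1) with miR-218-5p in the deposited tables. In the deposited C-33A tables RAB14 stood at 0.00 with miR-124-3p, 0.03 with miR-23b-3p and 0.16 with miR-218-5p. Against the mean of the other 2 mimics, RAB14 stood at 0.27 with miR-23b-3p in CaSki, a smaller difference than against the control.

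RAB22A (ENSG00000124209, chr20:58309696-58367507, plus strand) acts at early endosomes in recycling. It rose by 0.39 (SE 0.110, edgeR FDR 0.0227) with miR-23b-3p in the deposited CaSki table, and stood at 0.10 (SE 0.125) with miR-124-3p and 0.23 (SE 0.123) with miR-218-5p. After removal of the length and GC trend the value was 0.13 (adjusted p 1), so the call of RAB22A did not hold there. RAB31, which works between the trans-Golgi network and endosomes, was lower in C-33A with 2 mimics without passing, at -0.40 (SE 0.174, edgeR FDR 1) with miR-124-3p and -0.36 (SE 0.162, FDR 1) with miR-218-5p in the deposited tables. The RAB5 members, which organise early endosomes, stayed within -0.23 and 0.19 in all 6 deposited tables, and none was called.

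Among the 11 members of recycling and delivery to the plasma membrane, RAB8B (ENSG00000166128, chr15:63189469-63267782, plus strand) was lower in C-33A with miR-23b-3p and with miR-218-5p. Of these 11, 8 were kept in each C-33A table, too few for 1 call to set the role apart from other genes. RAB8B and RAB8A act in polarised transport and in the primary cilium. In the authors' deposited C-33A tables RAB8B fell by 0.86 (SE 0.174, edgeR FDR 0.00383) with miR-23b-3p and by 0.83 (SE 0.166, edgeR FDR 0.00245) with miR-218-5p, to 0.552 and 0.564 of its control level. With miR-124-3p it stood at 0.02 (SE 0.176, FDR 1) in the deposited C-33A table. The deposited CaSki values were 0.02 (SE 0.137, edgeR FDR 1) with miR-124-3p, -0.44 (SE 0.145, p 0.00252, FDR 0.0819) with miR-23b-3p and -0.40 (SE 0.148, p 0.00663, FDR 1) with miR-218-5p. The CaSki values lay below 0 with the same 2 mimics, but neither passed.

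Removing the length and GC trend moved the calls of RAB8B in both lines. In C-33A the values became -0.76 (adjusted p 0.0604) with miR-23b-3p and -0.70 (adjusted p 0.0532) with miR-218-5p, just outside the threshold. In CaSki with miR-23b-3p the value became -0.57 (adjusted p 0.0111), inside it. RAB11B, a second recycling endosome RAB, was gained in the same CaSki comparison, at 0.67 (adjusted p 0.0261) with the trend removed from a deposited 0.45 (SE 0.183, edgeR FDR 0.246). Against the mean of the other 2 mimics, RAB8B stood at -0.45 and -0.41 in C-33A with miR-23b-3p and miR-218-5p, and at -0.25 and -0.20 in CaSki; each mean includes the other of these 2 mimics.

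RAB8A differed from RAB8B in its matches, and its values with miR-23b-3p and miR-218-5p lay nearer to 0 than those of RAB8B. In the deposited C-33A tables RAB8A had a log2 fold change of 0.11 (SE 0.180) with miR-23b-3p and -0.29 (SE 0.174) with miR-218-5p. The deposited CaSki value with miR-218-5p was -0.32 (SE 0.129, p 0.0127, edgeR FDR 1), close to that of C-33A, and with miR-23b-3p it was -0.16 (SE 0.110). In CaSki with miR-218-5p the RAB8B value of -0.40 (SE 0.148) lay near that of RAB8A. The difference between the paralogues was not tested. An antisense gene shares 37.8% of the exon bases of RAB8A, whereas no other GENCODE gene shares an exon base with RAB8B. RAB13, a RAB of tight junctions, had -0.55 (SE 0.223, edgeR FDR 0.244) with miR-23b-3p in the deposited CaSki table, the lowest value of any kept member in that comparison. AL358472.6 on the same strand shares 24.8% of the exon bases of RAB13. RAB11A, the main RAB of the recycling endosome, lay between -0.14 and 0.04 in all 6 deposited tables.

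Of the 7 members of late endosomes, lysosomes and related organelles, 5 were kept in each table. RAB38 (ENSG00000123892, chr11:88113242-88175467, minus strand) passed once, and 1 call among so few does not set the role apart from other genes. In the authors' deposited CaSki tables it fell by 0.91 (SE 0.179, edgeR FDR 0.00069) with miR-124-3p, to 0.531 of its control level. It stood at -0.35 (SE 0.125, edgeR FDR 0.136) with miR-23b-3p and at 0.02 (SE 0.130, FDR 1) with miR-218-5p in the deposited tables. RAB38 was lower with miR-124-3p than with the mean of the other 2 mimics too, by a log2 difference of -0.75. Its partner RAB32 had -0.22 (SE 0.134, edgeR FDR 1) with miR-124-3p in the deposited CaSki table, and in C-33A, where it was near the filter, -0.88 (SE 0.502, FDR 1).

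RAB7A (ENSG00000075785, chr3:128726122-128814796, plus strand), the RAB that brings late endosomes to lysosomes, lay above 0 in each of the 6 deposited tables and passed in none. The deposited C-33A values were 0.34 (SE 0.184) with miR-124-3p, 0.30 (SE 0.177) with miR-23b-3p and 0.53 (SE 0.167, p 0.0016, edgeR FDR 0.626) with miR-218-5p. The deposited CaSki values, in the same order of mimics, were 0.41 (SE 0.147, p 0.00528, edgeR FDR 0.436), 0.41 (SE 0.164) and 0.29 (SE 0.143). The 3 values of a line share their control samples, and against the mean of the other 2 mimics RAB7A lay between -0.13 and 0.21.

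**Figure D3:**
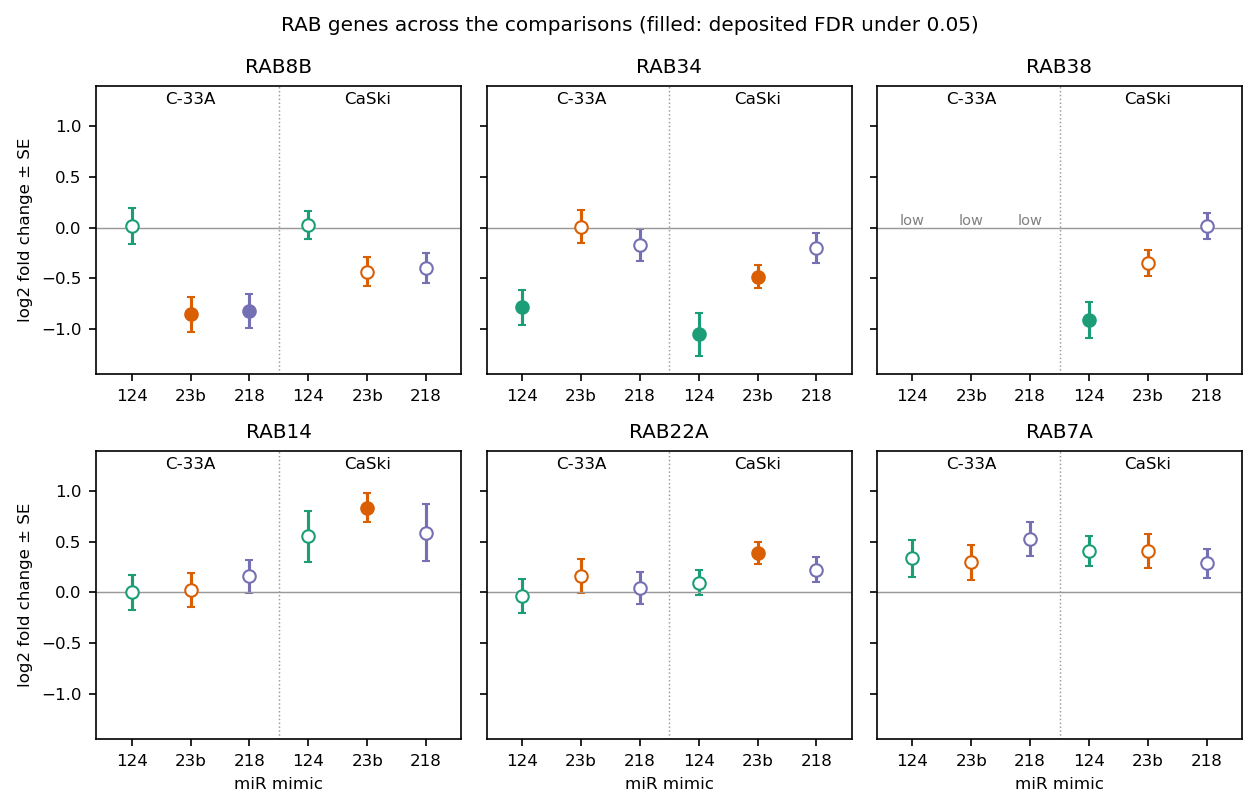
Deposited log2 fold change with its SE (y axis) in the 3 comparisons of C-33A and the 3 of CaSki (x axis) for RAB8B, RAB34, RAB38, RAB14, RAB22A and RAB7A; filled circles passed an FDR under 0.05 and "low" marks an average log2 CPM under 0. RAB34 was lowest with miR-124-3p in both lines, RAB8B with the other 2 mimics, and RAB7A lay above 0 throughout.

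In regulated secretion, 0 of the 4 or 5 members kept in each table passed in any of the 6 comparisons. With shares of at most 5.25% of all kept genes in 1 direction, so few members could show no calls without differing from other genes. RAB27A, which docks exosome-bearing and secretory organelles, had -0.67 (SE 0.301, edgeR FDR 1) with miR-124-3p in the deposited C-33A table. In CaSki its deposited values were -0.36 (SE 0.233, edgeR FDR 1) with miR-124-3p and 0.71 (SE 0.223, p 0.00153, FDR 0.0585) with miR-23b-3p. RAB3A, the RAB of synaptic vesicles, reached 1.28 (SE 0.462, edgeR FDR 0.791) with miR-124-3p in C-33A, the highest deposited value of any kept member. RAB3A was kept in that table only, at an average log2 CPM of 0.25, near the filter. That average includes the mimic samples, so the rise itself lifted it, and its rank among kept members is helped by the filter. RAB3B had 0.63 (SE 0.232, edgeR FDR 0.476) and RAB26, a RAB of secretory granules, -0.52 (SE 0.234, FDR 0.883) with miR-124-3p in the deposited CaSki table.

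The cilium and remaining members, 4 to 6 kept in each table, also gave 0 calls in every comparison, to be read in the same way. RAB40B, which recruits a ubiquitin ligase, had -0.58 (SE 0.225, p 0.0105, edgeR FDR 1) with miR-218-5p in the deposited C-33A table and -0.41 (SE 0.221, FDR 1) in that of CaSki. RAB40C, of the same subfamily, had 0.63 (SE 0.291, edgeR FDR 1) with miR-124-3p in the deposited C-33A table and 0.05 (SE 0.242) in that of CaSki. RAB23, known for restraining Hedgehog signalling, lay between -0.15 and 0.03 in all 6 deposited tables. BAG2 on the opposite strand shares 57.7% of its exon bases, and it is not known here whether the counting used strand. RAB6D, a near-identical copy of RAB6A outside the role lists, had -0.57 (SE 0.445) with miR-23b-3p in the deposited C-33A table. RAB6D was near the filter in C-33A, at an average log2 CPM of 0.19 to 0.37 over the tables. Reads of RAB6A, RAB6C and RAB6D may have been split between them.

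The lines share no samples, so the change with a mimic was compared between them by a normal test of the difference of the deposited log2 fold changes, adjusted over all genes kept in both tables. With miR-23b-3p, 1 of 42 members differed, beside 1.7% of all genes. This was RAB14, whose change was higher in CaSki than in C-33A by 0.81 (SE 0.219, adjusted p 0.0253). The next lowest were RAB1B, with a CaSki minus C-33A difference of -0.58 (SE 0.209, adjusted p 0.119), and RAB35, a RAB of fast recycling, with -0.58 (SE 0.224, adjusted p 0.153). An antisense gene shares 29.3% of the exon bases of RAB1B. RAB34 differed by -0.49 (SE 0.203, adjusted p 0.190) with miR-23b-3p, so its fall was called in CaSki without a called difference between lines. With miR-124-3p, 0 of 43 members differed, beside 0% of all genes, and 1 member had an unadjusted p under 0.05 by this normal test (RAB6A, p 0.0441). With miR-218-5p, 0 of 42 differed, also beside 0% of all genes, and 1 had such an unadjusted p (RAB18, p 0.0479).

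The falls of RAB8B were not called different between lines. The CaSki minus C-33A difference of RAB8B was 0.42 (SE 0.227, adjusted p 0.352) with miR-23b-3p and 0.42 (SE 0.223, adjusted p 1.0) with miR-218-5p. For RAB34 with miR-124-3p it was -0.27 (SE 0.271, adjusted p 1.0). The deposited tests of both lines borrow their spread from other genes, in C-33A over all listed genes and in CaSki to a lesser degree, which enters each of these SEs.

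**Figure D4:**
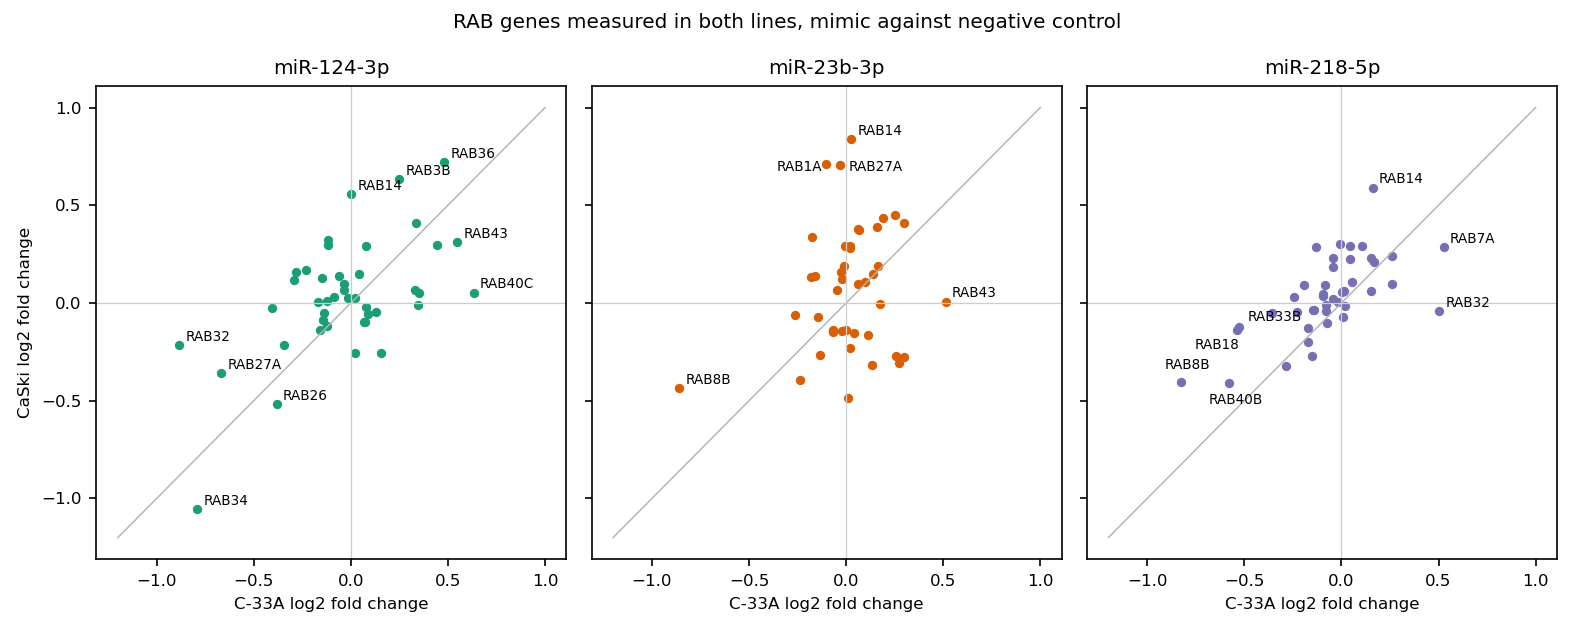
Deposited log2 fold change of RAB genes kept in both lines, C-33A on the x axis and CaSki on the y axis, 1 panel for each mimic; the diagonal marks equal change and names are given past 0.5 in either line. RAB34 lies low in both lines with miR-124-3p, RAB8B with miR-23b-3p and miR-218-5p, and RAB14 is above 0.5 in CaSki in each panel.

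Matches to the seeds were counted in the 3' UTRs of all 63 members and of 19063 genes. A 7-base match to miR-23b-3p was held by 7 members (11.1%) and 18.1% of all genes, and one to miR-218-5p by 14 members (22.2%) and 13.7%. The members' 3' UTRs were longer, with a median of 2101 bases against 1039. Besides RAB8B, RAB14 and RAB21 (an early endosome RAB), the members with a miR-23b-3p match were RAB27B, RAB2B, RAB39B and RAB6B. A match was present in members that fell, rose or did neither: with miR-23b-3p, RAB8B fell in C-33A and RAB14 rose in CaSki.

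In C-33A with miR-218-5p, 9 of the 10 kept members with a match lay below 0 in the deposited table, beside 68.8% of all genes with one. Their median log2 fold change was -0.241, against -0.007 for members without a match; over all genes the medians were -0.104 and -0.029. RAB8B, RAB18, RAB33B, RAB31 and RAB8A, in that order, were the lowest of these 10, and RAB8B was the one called. In CaSki with miR-218-5p, 6 of 9 lay below 0, with a median of -0.054 against 0.032 for members without a match (all genes -0.005 and 0.015). With miR-23b-3p the deposited C-33A medians were -0.068 for 6 members with a match and 0.021 for the rest (all genes -0.082 and 0.053). The order was the other way in CaSki with miR-23b-3p, at 0.123 for 6 members with a match and -0.004 for the rest (all genes 0.055 and -0.035). In that same comparison, matches to the seed of miR-218-5p, which was not the mimic given, also went with higher medians. These were 0.160 for members with such a match and -0.068 for the rest (all genes 0.101 and -0.039). The order there was therefore not particular to matches of the added microRNA. With 8mer sites only, the members' median with miR-218-5p was -0.158 in C-33A (5 members), beside -0.162 for all genes with such a site, and 0.029 in CaSki (4 members), beside -0.052. The lower median of members than of all genes with a match in C-33A was therefore not seen with 8mer sites. These medians are descriptions over few genes, and no test was made on them.

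**Figure D5:**
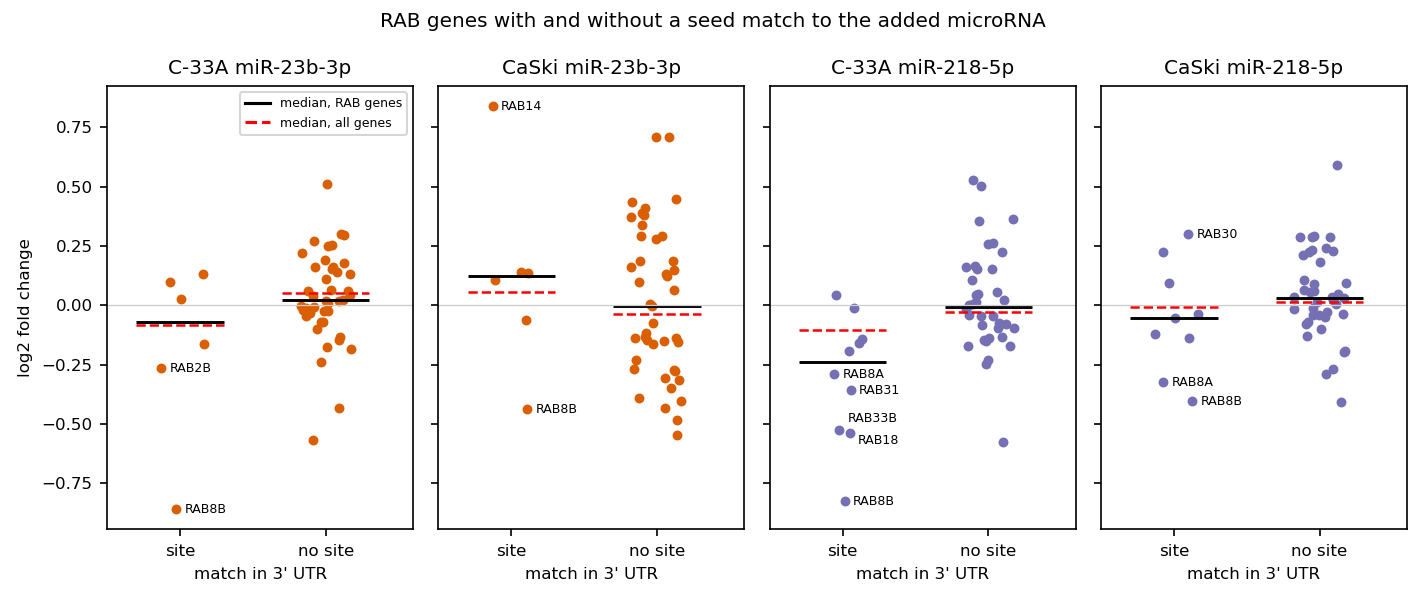
Deposited log2 fold change (y axis) of kept RAB genes with and without a 7-base match to the seed of the added microRNA (x axis), for miR-23b-3p and miR-218-5p in each line; black lines are medians of the RAB genes and dashed red lines those of all genes. In C-33A with miR-218-5p the members with a match have a median of -0.241, beside -0.104 for all genes with one.

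The machinery that loads, switches and reads RAB proteins was listed as 117 genes, of which 105 were kept in each C-33A table and 112 or 113 in those of CaSki. The list holds 8 genes of prenylation and membrane extraction, 33 exchange factors, 34 GTPase activating proteins and 42 effectors. In C-33A with miR-218-5p 1 of 105 fell, beside 0.273% of all kept genes, and 0 rose. This was FYCO1, a RAB7 effector that links late endosomes and autophagosomes to kinesin, with a deposited value of -0.85 (SE 0.172, edgeR FDR 0.00245). Its value with miR-218-5p in the deposited CaSki table was -0.56 (SE 0.173, edgeR FDR 0.884). In CaSki with miR-124-3p 2 of 113 fell, beside 0.801%, and 0 rose. ANKRD27, an exchange factor for RAB21 that also binds RAB32 and RAB38, fell by 0.67 (SE 0.147, edgeR FDR 0.00446) in that deposited table, and stood at -0.56 (SE 0.182, FDR 0.478) in that of C-33A. RAB11FIP5, a RAB11 effector, fell by 0.58 (SE 0.149, edgeR FDR 0.0401) in the deposited CaSki table. In CaSki with miR-23b-3p DENND4C, an exchange factor for RAB10, rose by 0.44 (SE 0.122, edgeR FDR 0.0207) in the deposited table. That is 1 rise and 0 falls of 113, beside 5.25% and 3.84% of all kept genes. No machinery gene passed in C-33A with miR-124-3p or miR-23b-3p, or in CaSki with miR-218-5p. Of all kept genes, 0.517% fell and 0.116% rose in C-33A with miR-124-3p, and 0.125% and 0.0657% with miR-23b-3p. In CaSki with miR-218-5p the shares were 0.0848% and 0.013%. At such shares a list of this size could show no calls without differing from other genes.

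In CaSki with miR-23b-3p, 2 of 5 epithelial markers, KRT8 (-0.58) and KRT19 (-0.44), and 1 of 6 squamous markers, KRT17 (-0.38), fell in the deposited table and 0 rose. Of all kept genes 3.84% fell and 5.25% rose there. KRT8, KRT19 and KRT17 stood at 9.62, 9.58 and 11.21 in average log2 CPM, against a median of 4.14 over all kept genes. The other markers stood on both sides of 0 there. These were KRT18 at -0.42, EPCAM at -0.08 and CDH1 at 0.23 among the epithelial ones, and SFN at -0.31, KRT6A at -0.26, KRT5 at -0.03, KRT14 at 0.27 and TP63 at 0.38 among the squamous ones. The part of these marker values in the RAB14, RAB22A and RAB34 values was not tested.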

How the data were processed

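PolyA RNA was sequenced in 23 samples. The submitters used STAR 2.7.10b, featureCounts 2.0.3, edgeR 3.36.0 and FastQC 0.73 and the build hg38 (GRCh38), per the submitters' processing notes; the role and order of each tool, the annotation, strand setting and filters are not given in the sources used here. The authors deposited 6 comparison tables, which per the file headers hold for each of 61217 genes the p-value and FDR, the F score, the log2 fold change and the mean level as log2 CPM. Values per sample were not analysed here, so depth is unknown and the deposited statistics were used in place of a new fit. The deposited FDR matched a Benjamini-Hochberg adjustment over all listed genes. The denominator degrees of freedom solved from F and p were 183651 or 244868 in C-33A, a spread pooled over all listed genes, and 25.7 to 38.2 in CaSki, where it was pooled in part.

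Calls needed an FDR under 0.05 and an average log2 CPM of 0 or more. SEs are the log2 fold change divided by the normal quantile of the deposited p-value. Length and GC trends were fitted with splines of 5 degrees of freedom on GENCODE 29 transcripts. The line test and trend fit were checked on simulated data. The noise was drawn from the same recovered SEs, so the check cannot show whether those SEs hold. Python 3.11.15, pandas 2.3.3, scipy 1.17.1 and statsmodels 0.14.6 were used. Any member could be named; full statistics were for called members, RAB34, RAB8B and the 3 largest falls and rises in each comparison. Machinery genes were named where called. RAB33B, RAB7A, RAB8A, RAB31, RAB6A, RAB11B and RAB35 values were chosen after being seen. Members and lists were chosen with earlier results of these data known. A comparison with other small GTPase families is not reported here.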

Additional observations from a re-analysis of the deposited data

Results flagged for a closer look

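RAB14 was the RAB gene whose change with a mimic differed between the lines. With miR-23b-3p the difference of CaSki minus C-33A was 0.81 on the log2 scale (SE 0.219, adjusted p 0.0253, normal test over all genes kept in both lines), from 0.84 in the authors' deposited CaSki table and 0.03 in that of C-33A. The difference was called under each of 3 other settings tried. These were SEs from the F score, centring on the median, and a stricter filter of 1 on the level. Whether it holds with the length and GC trend removed was not tested. Without that trend the RAB14 values with miR-23b-3p were 0.78 in CaSki and 0.10 in C-33A, nearer to each other than the deposited ones. With the other mimics the RAB14 difference was 0.55 (SE 0.305) for miR-124-3p and 0.43 (SE 0.323) for miR-218-5p, both at an adjusted p of 1.0. The RAB14 values of CaSki share their control samples, and the part of those samples was not tested.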

How the results depend on the processing

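The deposited tables give no values per sample, so leaving out a replicate and DESeq2 were not run, and matches of miR-124-3p were not run. No paired analysis was possible because the tables hold no columns per sample. Counts of called members were within 1.5 times the main count under an FDR of 0.01, other filters on the average log2 CPM and centring. The exceptions follow. With the length and GC trend removed the count fell from 1 to 0 in C-33A with miR-23b-3p and from 1 to 0 with miR-218-5p, both RAB8B; in CaSki with miR-23b-3p it stayed at 3, but with RAB11B and RAB8B in place of RAB22A and RAB34 beside RAB14. In CaSki with miR-23b-3p the count of 3 became 6 at an FDR under 0.1 and 8 when adjusted over kept genes only, where fewer genes are tested. Members with a match went from 7 to 24 for miR-23b-3p with 6-base matches, and from 14 to 30 for miR-218-5p with 6-base and to 6 with 8mer matches; these follow from the definition. Signs turned for RAB34 with miR-23b-3p in C-33A (0.01) to -0.0024 when centred and -0.12 without the trend, for RAB8B with miR-124-3p in CaSki (0.02) to -0.019 without the trend, and for RAB34 with miR-23b-3p in CaSki (-0.48) to 0.14 against the other mimics. Against the other mimics, values that were not called turned too: RAB14 in CaSki with miR-124-3p (0.56 to -0.16) and miR-218-5p (0.59 to -0.11), RAB34 with miR-218-5p in CaSki (-0.20 to 0.57) and C-33A (-0.17 to 0.22), RAB7A with miR-23b-3p in C-33A (0.30 to -0.13) and RAB30 with miR-218-5p in CaSki (0.30 to -0.07). Turns against the other mimics follow from the contrast, which subtracts the mean of the line's other 2 mimics. In CaSki that mean holds, for example, RAB34 with miR-124-3p at -1.06 or RAB14 with miR-23b-3p at 0.84. The cause of the values themselves was not tested. The call of RAB14 held with every setting that gave a test.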
